A study of Homo sapiens with 9 samples.

Results

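The genes followed here belong to glucose uptake, glycolytic control, hypoxia response and glucose sensing, across the siRNA groups of the ZIP7 knockdown experiment. They were TXNIP, ARRDC4, SLC2A1, HK2, PFKFB3, PFKFB4, LDHA, PDK1, CA9 and VEGFA, taken by name as 10 of the 58395 Ensembl genes counted. All 10 passed the low-count filter that left 16761 genes for testing. MDA-MB-231 cells, an established line from a triple-negative breast tumour, were used, and RNA was taken 96 h after transfection in DMEM with serum. There were 3 libraries of cells given nontargeting control siRNA (siNC), 3 of cells given ZIP7 siRNA_1 (siZIP7_1, from Horizon) and 3 of cells given ZIP7 siRNA_2 (siZIP7_2, from Qiagen). Untransfected cells were not among these samples. ZIP7, the product of SLC39A7, moves zinc from the endoplasmic reticulum to the cytosol. Each siZIP7 group holds a single siRNA, so within a group the loss of ZIP7 and any effect of that siRNA's own sequence on other transcripts cannot be told apart. The labels do not say that libraries came from separate cultures, and p-values measure only the spread between these libraries. In a bulk sample, fewer cells of a kind and less RNA per cell cannot be told apart either.

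Cells take up glucose through transporters such as GLUT1, trap it by phosphorylation and split it to pyruvate, which is reduced to lactate or passed to mitochondria. Hypoxia-inducible factors (HIF) raise many of these genes when oxygen is low or when prolyl hydroxylases are blocked, and they bind a short core sequence in DNA. TXNIP and ARRDC4 are alpha-arrestins whose transcription is driven by the MondoA and MLX proteins when sugar phosphates build up, and TXNIP in turn limits glucose uptake.

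The stretches of promoter shown here hold textbook recognition words of these factors in TXNIP, ARRDC4, LDHA, PDK1 and CA9. HK2 and PFKFB3 also held the HIF core, and their stretches are not printed. All windows come from RefSeq (GRCh38.p14), where 9 of the 10 genes matched with 14 windows. Each reaches from 250 bases before a transcript start to 50 after it. VEGFA was not matched. Capitals mark the paired E-box-like word in TXNIP, the E-box in ARRDC4 and the HIF core in LDHA, PDK1 and CA9, where it is written as CACGT, the reverse complement of ACGTG. These last stretches lie in annotated exons.
TXNIP, chr1:145996611-145996707, minus strand: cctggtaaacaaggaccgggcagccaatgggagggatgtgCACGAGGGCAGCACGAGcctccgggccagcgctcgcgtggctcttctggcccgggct
ARRDC4, chr15:97960453-97960538, plus strand: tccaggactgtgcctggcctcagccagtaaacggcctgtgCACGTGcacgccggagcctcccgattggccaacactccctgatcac
LDHA, chr11:18394470-18394499, plus strand: gactcaCACGTGggttcccgCACGTccgcc
PDK1, chr2:172556060-172556089, plus strand: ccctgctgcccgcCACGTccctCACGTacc
CA9, chr9:35673890-35673919, plus strand: cccagctctcgtttccaatgCACGTacagc

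The paired E-box-like word (a carbohydrate response element), searched on both strands, was found once in TXNIP, starting 88 bases before the transcript start, and in no other window of the 9 genes. It was present in 20 of all 35116 windows of that length (0.057%). The E-box CACGTG, which reads the same on both strands, was in windows of 4 of the 9 genes and in 7.26% of all windows. The HIF core ACGTG was in 8 of the 14 windows, against 21.4% of all windows, and each E-box holds it on both strands. The second form GCGTG was in 9 of the 14 windows, against 36.5% of all windows. In LDHA the core ACGTG stood at 3 places of 1 window, in PDK1 at 2 and in CA9 at 1. HK2 held it at 2 places in each of 2 windows, and TXNIP, ARRDC4 and PFKFB3 at 1 place of 1 window. SLC2A1 and PFKFB4 had no match to ACGTG in these windows. A match describes the letters of the window only.

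Gene counts summed to 24153785 to 30454419 reads in a library, and reads falling outside annotated features were 7.43 to 8.28% with siNC, 7.80 to 9.62% with siZIP7_1 and 9.99 to 11.5% with siZIP7_2. SLC39A7, the targeted gene, was at 329 ± 12.5 CPM (SD, n = 3) in control cells, and fell to 35.6 ± 2.83 CPM (siZIP7_1) and 19.2 ± 1.45 CPM (siZIP7_2), where CPM is the read count after scaling libraries to one size by edgeR's TMM method. VIM, CD44, AXL, CAV1 and KRT18 were each at 181 CPM or more in every group, though their levels differed between groups. VIM, AXL and CAV1 had lower means in both siZIP7 groups than with siNC. CD44 was lower with siZIP7_1 and higher with siZIP7_2, and KRT18 the reverse. Of the 5 markers chosen as absent from this line, ESR1 and PGR had means under 1 CPM over the 9 libraries, whereas GATA3, the highest, was at 15.8 CPM with siNC. The summed level of 6 immune and endothelial markers was 4.55 to 5.77 CPM in siNC libraries, 1.51 to 1.86 CPM in siZIP7_1 libraries and 18.9 to 22.3 CPM in siZIP7_2 libraries.

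With siZIP7_1, LDHA fell to 14.8%, CA9 to 20.1% and VEGFA to 25.9% of their level with siNC, and SLC2A1, PFKFB3, PDK1 and TXNIP fell by less. ARRDC4 and HK2 rose. With siZIP7_2 none of the 10 genes moved by 1.8-fold or more: PFKFB4, PFKFB3, HK2 and VEGFA rose and SLC2A1, ARRDC4, LDHA and TXNIP fell. Hence 7 of the 10 genes were higher with siZIP7_2 than with siZIP7_1, by 6.52-fold for CA9, 5.85-fold for LDHA and 4.39-fold for VEGFA. All 9 libraries were fitted together with edgeR (quasi-likelihood F-test), p-values were adjusted over 16761 genes by the Benjamini-Hochberg method, and the threshold was 0.05.

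By that test 9 of the 10 genes changed with siZIP7_1 (2 higher, 7 lower), where 70.7% of all tested genes changed and 35.9% were lower. With siZIP7_2, 8 changed (4 higher, 4 lower), against 77.8% of all genes. Between the siRNAs 8 differed (7 higher and 1 lower with siZIP7_2), against 78.7% of all genes (38.1% higher and 40.6% lower). The libraries of the groups compared did not overlap for 9, 8 and 8 of the 10 genes, against 72.1%, 78.7% and 79.7% of all genes. The totals called in either direction therefore lay near the background, whereas the 7 lower with siZIP7_1 and the 7 higher between the siRNAs were larger shares than over all genes. The 10 genes were chosen with earlier results of these data known, so these shares are a description and not a test. A test against a 1.8-fold change (glmTreat) called 3 of 10 with siZIP7_1, against 16.9% of all genes (8.6% higher and 8.32% lower), and 0 of 10 with siZIP7_2, against 24.7%. It called 4 of 10 between the siRNAs, against 28.2%. The median log2 fold change of the 10 genes was -0.59 with siZIP7_1, 0.01 with siZIP7_2 and 0.61 between the siRNAs, where the medians over all genes were -0.01, -0.00 and -0.02. Both comparisons with siNC use the same control libraries.

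**Figure D1:**
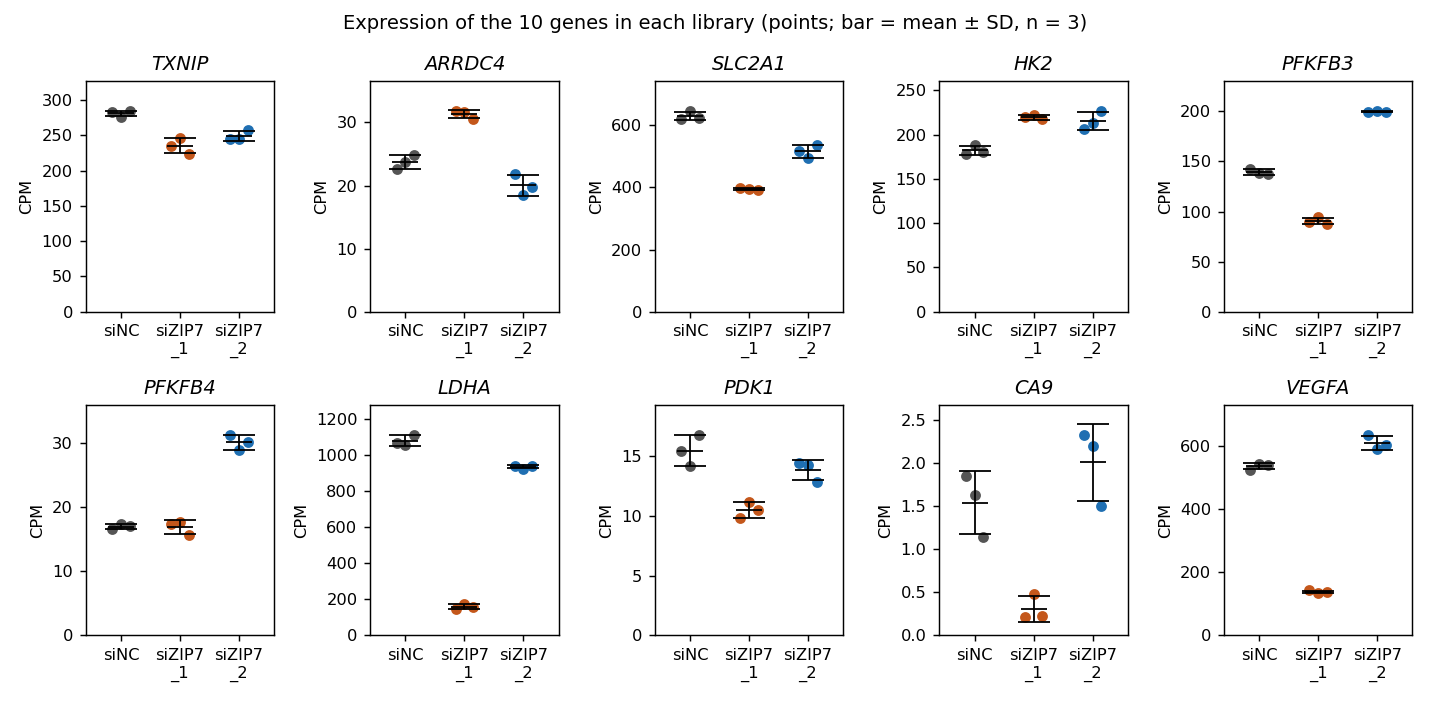
CPM of each of the 10 genes (vertical axis from 0) in the 9 libraries, by siRNA group on the horizontal axis. Points are libraries and bars are the mean ± SD of 3 libraries. LDHA and VEGFA sit low in the 3 siZIP7_1 libraries, whereas PFKFB4 stands high in the 3 siZIP7_2 libraries.

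Levels of different genes were compared per length, as RPKM (CPM per kilobase of exonic sequence). With siNC the order was LDHA at 174 RPKM, SLC2A1 at 133, TXNIP at 77.6, VEGFA at 37.0, HK2 at 30.1, PFKFB3 at 22.8, ARRDC4 at 5.82, PFKFB4 at 2.78, PDK1 at 1.04 and CA9 at 0.923 RPKM. PDK1 and CA9, the lowest pair, overlapped between libraries, and the other neighbours did not. LDHA thus stood among the top 0.818% of 16738 genes with a length. With siZIP7_1 the order changed, and LDHA at 25.7 RPKM stood below SLC2A1 (83.5 RPKM), TXNIP (64.9 RPKM) and HK2 (36.3 RPKM). With siZIP7_2 LDHA was again the highest at 150 RPKM. Exonic length takes in all annotated transcripts, which lowers the RPKM of genes with many long forms such as PDK1 and VEGFA.

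TXNIP (ENSG00000265972) is a minus-strand gene at 145992435 to 145996600 of chromosome 1 (GRCh38, GENCODE annotation, as for the genes that follow). Its expression was 283, 277 and 284 CPM in the siNC libraries, 236, 246 and 224 CPM with siZIP7_1 and 244, 245 and 258 CPM with siZIP7_2. Both siZIP7 groups were below all siNC libraries and overlapped each other. Against siNC TXNIP changed by -0.26 log2 with siZIP7_1 (SE 0.0463, adjusted p = 1.40e-05, edgeR) and -0.18 with siZIP7_2 (SE 0.0463, adjusted p = 0.00115, edgeR). The second value was -0.07 with upper-quartile normalization, which did not pass (adjusted p = 0.135). The log2 difference between the siRNAs was 0.08, with a 95% interval of -0.03 to 0.20, and did not pass (adjusted p = 0.104), although it did under 4 alternatives. Among these were DESeq2's size factors (adjusted p = 0.0273) and leaving out siZIP7_1 replicate 2 (adjusted p = 0.0480). The largest shift of TXNIP, a loss of 0.26 log2, was smaller than the median size of change over all genes with siZIP7_1, 0.48.

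ARRDC4 (ENSG00000140450, chromosome 15, 97960698 to 97973838, plus strand) rose with siZIP7_1, where TXNIP fell, and was lower with siZIP7_2, as TXNIP was. It was at 22.6, 23.7 and 24.8 CPM with siNC, 31.8, 31.7 and 30.6 CPM with siZIP7_1 and 21.8, 18.5 and 19.8 CPM with siZIP7_2. No groups overlapped, with siZIP7_1 highest and siZIP7_2 lowest. ARRDC4 changed by 0.40 log2 with siZIP7_1 (SE 0.0660, adjusted p = 3.67e-06, edgeR) and -0.25 with siZIP7_2 (SE 0.0693, adjusted p = 0.00218, edgeR). With upper-quartile normalization the fall with siZIP7_2 was -0.14 and did not pass (adjusted p = 0.0759). The difference between the siRNAs was -0.65 (SE 0.0669, adjusted p = 6.51e-10, edgeR). Taken over the 9 libraries as log2 CPM minus the siNC mean, the profiles nearest to TXNIP among 13735 genes were those of ABR, OGFOD3 and FRMD6, at Euclidean distances of 0.112, 0.119 and 0.122, where TXNIP itself lay 0.553 from no change. The nearest to ARRDC4 were TMEM205, DLG3 and ZNF620, at 0.117, 0.135 and 0.141, where ARRDC4 lay 0.826 from no change.

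MLXIP, which encodes MondoA, and its partner MLX were higher with siZIP7_1 and lower with siZIP7_2. MLXIP went from 194 ± 7.39 CPM with siNC to 261 ± 9.50 and 125 ± 1.79 CPM, and MLX from 113 ± 1.72 to 129 ± 3.36 and 74.8 ± 4.25 CPM (SD, n = 3 each). Other genes overlap 18.1% of the exonic length of MLX. MLXIPL, which encodes the related ChREBP, was low and moved the other way, at 1.04 ± 0.299, 0.290 ± 0.118 and 2.18 ± 0.358 CPM (SD, n = 3 each). Another alpha-arrestin gene, ARRDC3, rose 3.13-fold with siZIP7_2, from 26.9 ± 2.50 to 84.3 ± 2.08 CPM (SD, n = 3 each), and fell by 0.26 log2 with siZIP7_1. Thioredoxin itself, the protein that TXNIP binds, fell by 0.14 and 0.22 log2 (TXN). TXNRD1, its cytosolic reductase, rose by 0.26 and 0.64 log2, while TXN2, the mitochondrial thioredoxin, rose by 0.26 with siZIP7_1 and fell by 0.84 with siZIP7_2. Of the 11 tested genes in this list, 7 were higher and 4 lower with siZIP7_1, and 5 were higher and 5 lower with siZIP7_2. Over all genes 34.8% were higher and 35.9% lower with siZIP7_1, and 38.5% and 39.3% with siZIP7_2.

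SLC2A1 (ENSG00000117394, chromosome 1, 42925375 to 42959176, minus strand) encodes GLUT1, the main basal glucose transporter. It was at 621, 646 and 624 CPM with siNC, 397, 396 and 391 CPM with siZIP7_1 and 516, 496 and 536 CPM with siZIP7_2. The groups did not overlap, and the siZIP7_2 libraries lay between the others. It fell by 0.68 log2 with siZIP7_1 (SE 0.0456, adjusted p = 8.83e-14, edgeR) and by 0.29 log2 with siZIP7_2 (SE 0.0454, adjusted p = 1.61e-06, edgeR). SLC2A3, which encodes the high-affinity transporter GLUT3, rose with each siRNA instead, from 26.8 ± 0.585 CPM to 64.4 ± 2.05 and 85.5 ± 0.965 CPM (SD, n = 3 each). Per length it stayed well below SLC2A1, with a mean of 9.56 RPKM over the 9 libraries.

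Among the lactate carriers, SLC16A3, which encodes the exporter MCT4, was at 659 ± 15.1, 671 ± 14.4 and 607 ± 36.7 CPM (SD, n = 3 each), and only the fall with siZIP7_2 (-0.12 log2) passed. SLC16A1, which encodes MCT1, was low at 3.46 ± 0.392 CPM with siNC, fell to 2.39 ± 0.388 CPM with siZIP7_1 and rose to 7.12 ± 0.735 CPM with siZIP7_2 (SD, n = 3 each). BSG, the chaperone of these carriers, rose by 0.32 and 0.35 log2. Of 10 tested genes of hexose and lactate transport, 3 rose with both siRNAs, none fell with both, and 4 were called in opposite directions, against 17.7%, 20.8% and 18.7% of all genes.

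HK2 (ENSG00000159399, chromosome 2, 74833981 to 74893359, plus strand) encodes the inducible hexokinase that traps glucose in the cell. It was at 178, 188 and 181 CPM with siNC, 220, 223 and 217 CPM with siZIP7_1 and 206, 214 and 227 CPM with siZIP7_2. Both siZIP7 groups stood above all siNC libraries and overlapped each other. It rose by 0.27 log2 with siZIP7_1 (SE 0.0464, adjusted p = 7.27e-06, edgeR) and by 0.24 log2 with siZIP7_2 (SE 0.0465, adjusted p = 3.02e-05, edgeR). The difference between the siRNAs was -0.03 log2, with a 95% interval of -0.14 to 0.08. HK1, the constitutive hexokinase, rose by 0.19 log2 with siZIP7_1 and by 1.00 log2 with siZIP7_2, to 666 ± 24.0 CPM (SD, n = 3).

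PFKFB3 (ENSG00000170525, chromosome 10, 6144934 to 6254644, plus strand) and PFKFB4 (ENSG00000114268, chromosome 3, 48517684 to 48562015, minus strand) encode bifunctional enzymes that set the level of the sugar bisphosphate that activates phosphofructokinase. PFKFB3 was at 142, 138 and 138 CPM with siNC, 89.3, 94.2 and 87.9 CPM with siZIP7_1 and 199, 200.2 and 199 CPM with siZIP7_2. The siZIP7_1 libraries were lowest and the siZIP7_2 libraries highest, with no overlap. With siZIP7_1 the log2 fold change was -0.63 (SE 0.0459, adjusted p = 5.80e-13, edgeR) and 0.52 with siZIP7_2 (SE 0.0448, adjusted p = 1.80e-11, edgeR). Between the siRNAs it differed by 1.14 log2, and this difference also passed the test against 1.8-fold (adjusted p = 2.67e-07, glmTreat).

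PFKFB4 was at 16.6, 17.3 and 17.1 CPM with siNC, 17.4, 17.7 and 15.7 CPM with siZIP7_1 and 31.3, 28.9 and 30.2 CPM with siZIP7_2. The siZIP7_2 libraries stood apart from the other 6, which overlapped. The log2 fold change with siZIP7_2 was 0.83 (SE 0.0678, adjusted p = 5.51e-12, edgeR). With siZIP7_1 it was -0.01, with a 95% interval of -0.18 to 0.17, and its sign varied with the scaling. PFKFB2, another gene of this family, was chosen after its values were seen. It rose 4.96-fold with siZIP7_1, from 27.8 ± 1.33 to 138 ± 7.49 CPM, and 1.26-fold with siZIP7_2, to 34.9 ± 0.876 CPM (SD, n = 3 each). TIGAR, a phosphatase that opposes these enzymes, was at 13.3 ± 0.515, 14.4 ± 0.261 and 20.8 ± 0.806 CPM (SD, n = 3 each), of which the rise with siZIP7_2 passed, with 45.6% of its exons covered by overlapping genes.

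LDHA (ENSG00000134333, chromosome 11, 18394388 to 18408425, plus strand) encodes the lactate dehydrogenase subunit that favours lactate formation, and its promoter holds the HIF core words shown above. It was at 1069, 1056 and 1111 CPM with siNC, 149, 175 and 156 CPM with siZIP7_1 and 937, 924 and 941 CPM with siZIP7_2. The siZIP7_1 libraries lay far below all the others. Its change with siZIP7_1 was -2.76 log2 (SE 0.0552, adjusted p = 5.81e-26, edgeR), a 6.75-fold fall that stood among the top 2.57% of all genes by size of change. With siZIP7_2 it was -0.21 (SE 0.0511, adjusted p = 0.000577, edgeR), and with upper-quartile normalization -0.10, which did not pass (adjusted p = 0.0523). The siRNAs differed by 2.55 log2 (SE 0.0549, adjusted p = 9.10e-26, edgeR). Reads counted on 6 LDHA pseudogenes amounted to at most 2.51% of those on LDHA in any library.

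LDHB, which encodes the other main subunit, fell by 0.50 and 0.88 log2, from 529 ± 21.3 CPM to 373 ± 30.1 and 287 ± 14.5 CPM (SD, n = 3 each). Overlapping genes cover 33.4% of its exons. Among the other glycolytic enzymes 10 of 16 were lower and 4 higher with siZIP7_1, where 35.9% and 34.8% of all genes were. With siZIP7_2, 8 were lower and 3 higher, where 39.3% and 38.5% of all genes were. With both siRNAs 7 fell, namely GPI, PFKP, TPI1, GAPDH, ENO1, PKM and LDHB, and 3 rose with both, namely HK1, HKDC1 and ENO2. Of these GPI, PFKP, TPI1, HKDC1 and ENO2 are named after their values were seen. Over all genes 20.8% fell with both and 17.7% rose with both. The median log2 fold change of the 16 was -0.32 with siZIP7_1 and -0.08 with siZIP7_2.

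GAPDH went from 2894 ± 80.3 CPM to 1422 ± 53.9 and 2187 ± 56.3 CPM, PKM from 3147 ± 25.9 CPM to 1385 ± 20.5 and 2876 ± 111 CPM, and ENO1 from 2347 ± 56.2 CPM to 1591 ± 74.7 and 1632 ± 58.2 CPM (SD, n = 3 each). GAPDH and PKM thus fell more with siZIP7_1, by 0.62 and 1.05 log2, whereas for ENO1 the siRNAs differed by 0.04 log2, with a 95% interval of -0.08 to 0.16. PGK1, the first enzyme of the pathway to make ATP, moved least among the named enzymes, at 745 ± 2.50, 661 ± 42.8 and 737 ± 15.4 CPM (SD, n = 3 each). ALDOA, chosen after its values were seen, was counted at only 13.0 ± 1.42 CPM with siNC and 3.87 ± 0.108 CPM with siZIP7_1 (SD, n = 3 each), and other annotated genes overlap 53.5% of its exonic length.

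**Figure D2:**
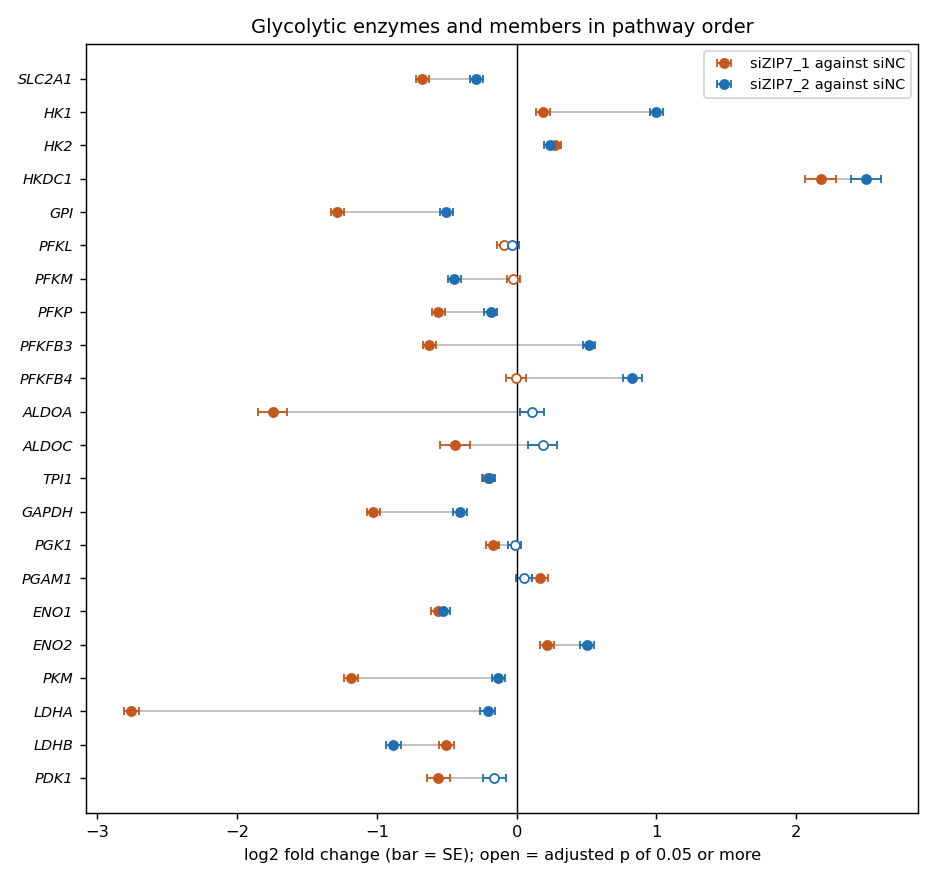
Log2 fold change against siNC (horizontal axis, bar = SE) of the glycolytic enzymes and members in pathway order from glucose uptake to lactate and pyruvate. Orange is siZIP7_1, blue is siZIP7_2, open points did not pass, and grey lines join the pair of values of a gene. LDHA is farthest to the left with siZIP7_1 (-2.76), whereas LDHB is at -0.88 with siZIP7_2.

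The pentose phosphate pathway branches from glucose phosphate and supplies NADPH. PGD, one of its genes, fell by 0.18 and 0.53 log2. TALDO1, which encodes transaldolase of the same pathway, fell by 0.11 log2 with siZIP7_1 and rose by 0.30 log2 with siZIP7_2. It was the only 1 of 7 tested genes of this list called in opposite directions, where 18.7% of all genes were. With both siRNAs 5 of the 7 fell and 0 rose, against 20.8% and 17.7% of all genes.

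PDK1 (ENSG00000152256, chromosome 2, 172555373 to 172608669, plus strand) encodes a kinase that shuts off pyruvate dehydrogenase and so keeps pyruvate out of mitochondria. It was at 15.5, 14.2 and 16.8 CPM with siNC, 9.83, 11.2 and 10.5 CPM with siZIP7_1 and 14.4, 14.3 and 12.9 CPM with siZIP7_2. The siZIP7_1 libraries were the lowest, and the siZIP7_2 libraries overlapped siNC. PDK1 changed by -0.56 log2 with siZIP7_1 (SE 0.0843, adjusted p = 9.81e-07, edgeR) and -0.16 with siZIP7_2 (SE 0.0822, adjusted p = 0.0743, edgeR). The second value passed without siNC replicate 2 (-0.22, adjusted p = 0.0288) and without the low-count filter (-0.21, adjusted p = 0.0303).

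The other kinases of pyruvate dehydrogenase did not share one direction. PDK2 fell by 0.77 and 0.52 log2, with 38.6% of its exons shared with SAMD14. PDK3 was at 3.91 ± 0.202, 3.39 ± 0.521 and 2.82 ± 0.122 CPM (SD, n = 3 each), and only the fall with siZIP7_2 passed. PDK4 rose from 1.63 ± 0.101 CPM to 2.16 ± 0.257 (siZIP7_1) and 6.44 ± 0.539 CPM (siZIP7_2, SD, n = 3 each). Within the enzyme complex itself DLAT fell by 0.17 and 0.48 log2, PDHX rose by 0.20 and 0.40 log2, and DLD rose by 0.35 log2 with siZIP7_1 and fell by 0.49 log2 with siZIP7_2. Of 14 tested genes in this list 4 rose and 3 fell with both siRNAs, against 17.7% and 20.8% of all genes. Another 5 were called in opposite directions, where 18.7% of all genes were.

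CA9 (ENSG00000107159, chromosome 9, 35673856 to 35681159, plus strand) encodes a surface carbonic anhydrase that is widely used as a marker of HIF activity. It was low, with 51, 38 and 32 reads in the siNC libraries, 6, 14 and 7 with siZIP7_1 and 60, 67 and 39 with siZIP7_2. These counts equal 1.85, 1.63 and 1.14 CPM, then 0.219, 0.481 and 0.220 CPM, and 2.33, 2.20 and 1.4995 CPM. All siZIP7_1 libraries were below the rest, and the siNC and siZIP7_2 libraries overlapped. With siZIP7_1 CA9 changed by -2.31 log2 (SE 0.319, adjusted p = 2.21e-07, edgeR). With siZIP7_2 it was 0.39, with a 95% interval of -0.15 to 0.94 (adjusted p = 0.1098, edgeR), and it passed with upper-quartile normalization (0.50, adjusted p = 0.0481), without siNC replicate 1 (0.55, adjusted p = 0.0490) or without siZIP7_2 replicate 3 (0.56, adjusted p = 0.0321). ARHGEF39 overlaps 38.5% of the exonic length of CA9, and the counting's strand setting is not given in the sources used here. The nearest profiles over the 9 libraries were those of ZNF726, MGAT5B and CLMN, at distances of 0.606, 0.631 and 0.632, where CA9 lay 2.47 from no change.

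VEGFA (ENSG00000112715, chromosome 6, 43770184 to 43786487, plus strand) encodes the main growth factor for blood vessels. It was at 523, 541 and 539 CPM with siNC, 142, 136 and 137 CPM with siZIP7_1 and 634, 589 and 601 CPM with siZIP7_2. No groups overlapped, and the siZIP7_1 libraries stood far below. VEGFA changed by -1.95 log2 with siZIP7_1 (SE 0.0478, adjusted p = 4.79e-24, edgeR), a 3.86-fold fall, and 0.19 with siZIP7_2 (SE 0.0454, adjusted p = 0.000547, edgeR). The siRNAs differed by 2.14 log2 (SE 0.0480, adjusted p = 2.63e-25, edgeR).

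**Figure D3:**
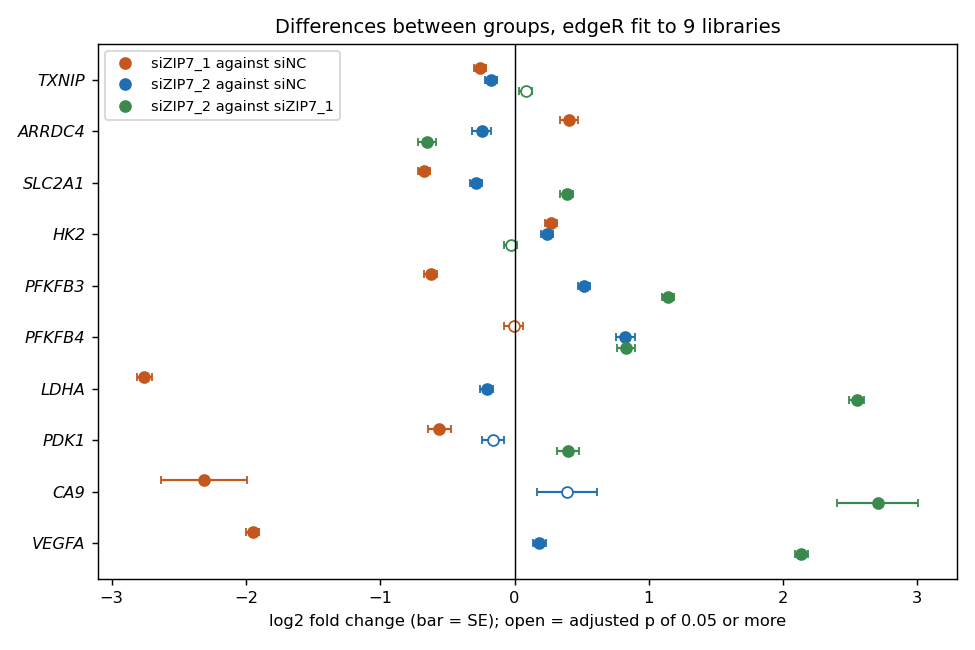
Log2 fold change (horizontal axis, bar = SE) of the 10 genes in the comparison of each siZIP7 group with siNC and of the siZIP7 groups with each other. Open points did not pass. The points for siZIP7_1 of LDHA, CA9 and VEGFA lie at -2.76, -2.31 and -1.95, whereas all points for siZIP7_2 against siNC lie between -0.29 and 0.83.

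VEGFC, which encodes a ligand for lymphatic vessels, and NRP1, a VEGF co-receptor, were likewise lower with siZIP7_1 and higher with siZIP7_2. VEGFC went from 90.3 ± 2.97 CPM to 36.8 ± 0.476 and 191 ± 2.73 CPM, and NRP1 from 559 ± 13.6 CPM to 210 ± 11.9 and 852 ± 16.1 CPM (SD, n = 3 each). VEGFB went the other way, by 0.46 and -0.13 log2. PGF rose by 0.91 log2 with siZIP7_2, and its 0.16 log2 with siZIP7_1 did not pass. FLT1, a VEGF receptor gene chosen after its values were seen, was the one gene of the list that rose with both siRNAs, from 0.632 ± 0.0395 CPM to 13.1 ± 0.309 and 2.83 ± 0.653 CPM (SD, n = 3 each), 20.6-fold and 4.43-fold. Of 7 tested genes of this family 3 were called in opposite directions, against 18.7% of all genes. The summed level of the immune and endothelial markers was also lowest with siZIP7_1 and highest with siZIP7_2, and 4 of the 6 had means under 1 CPM over the 9 libraries, with CD3E at 0.00881 CPM. PECAM1 (3.02, 0.102 and 8.63 CPM) and CD14 (1.81, 0.544 and 10.01 CPM) made up most of the sum with siNC and siZIP7_2. PTPRC went the other way, at 0.402, 0.875 and 0.327 CPM, and rose with siZIP7_1. CDH5 was at 0.0119, 0.135 and 1.27 CPM and rose with both siRNAs. The part of these markers in the values above was not tested.

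The genes that govern HIF were examined as a list of 12, of which 11 were tested. HIF1A, which encodes the oxygen-regulated subunit, did not pass in any comparison, with 559 ± 25.9, 568 ± 27.6 and 550 ± 14.7 CPM for siNC, siZIP7_1 and siZIP7_2 (SD, n = 3 each). The 95% interval of its log2 fold change was -0.10 to 0.14 with siZIP7_1 and -0.14 to 0.09 with siZIP7_2. EPAS1, which encodes the HIF-2 alpha subunit, fell from 176 ± 7.00 CPM to 66.0 ± 0.578 CPM with siZIP7_1 (log2 fold change -1.41, SE 0.0486, adjusted p = 1.21e-20, edgeR). With siZIP7_2 it was at 191 ± 7.56 CPM, a rise of 0.12 log2 (SD, n = 3 each). ARNT, the constant partner, rose by 0.56 and 0.16 log2, and ARNT2, chosen after its values were seen, fell by 1.39 log2 with siZIP7_1 and rose by 0.53 log2 with siZIP7_2.

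CITED2, whose product competes with HIF for a co-activator and is itself raised by HIF, rose from 150 ± 6.08 CPM to 618 ± 13.998 CPM with siZIP7_1 and fell to 122 ± 4.66 CPM with siZIP7_2 (SD, n = 3 each). VHL, which targets HIF for degradation, rose by 0.22 and 0.56 log2. The prolyl hydroxylase genes EGLN1 and EGLN3, of which EGLN3 is a strong HIF target, rose with siZIP7_2 by 0.45 and 0.81 log2, and their values of 0.01 and 0.09 with siZIP7_1 did not pass. In all, 3 of the 11 rose and 3 fell with siZIP7_1, and 9 rose and 1 fell with siZIP7_2. Here 34.8% of all genes rose and 35.9% fell with siZIP7_1, and 38.5% rose and 39.3% fell with siZIP7_2.

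A further 30 HIF target genes were listed, of which 29 were tested. With siZIP7_1, 11 rose and 12 fell, where 34.8% and 35.9% of all genes did, and the median log2 fold change was 0.01. Past 1.8-fold by glmTreat, 4 fell and 0 rose, where 8.32% and 8.6% of all genes did. With siZIP7_2, 22 rose and 5 fell, where 38.5% and 39.3% of all genes did, and the median was 0.66. Past 1.8-fold by glmTreat, 10 rose and 1 fell with siZIP7_2, where 14% and 10.7% of all genes did. Called in opposite directions were 12 of the 29, where 18.7% of all genes were. The siZIP7_1 group thus had lower LDHA, CA9 and VEGFA but no common direction over the wider list.

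ANGPTL4, a secreted inhibitor of lipoprotein lipase, had the widest span of the list. It fell from 61.7 ± 2.36 CPM to 26.6 ± 0.932 CPM with siZIP7_1 and rose to 860 ± 68.6 CPM with siZIP7_2 (SD, n = 3 each), 13.95-fold above siNC. NDRG1, a stress-induced gene, went from 143 ± 9.68 CPM to 101 ± 7.29 and 804 ± 37.2 CPM, and BHLHE40, a transcriptional repressor, from 101 ± 4.54 CPM to 44.9 ± 1.99 and 455 ± 14.3 CPM (SD, n = 3 each). DDIT4, an inhibitor of mTORC1 signalling, went from 194 ± 7.56 CPM to 65.1 ± 1.31 and 307 ± 20.2 CPM, and DDIT4-AS1 overlaps 41.2% of its exonic length. These 4 genes shared the order of VEGFA, with siZIP7_1 lowest and siZIP7_2 highest. BNIP3L, P4HA2, AK4, PPFIA4, JMJD6 and GBE1 were also called lower with siZIP7_1 and higher with siZIP7_2. P4HA1 and GYS1 were called the opposite way with each siRNA. The genes of these last sentences are named after their values were seen. ANGPTL4 and BHLHE40 were named for their mean RPKM over all 9 libraries, which their siZIP7_2 levels raised. With siNC they were at 24.8 and 26.4 RPKM, below BNIP3L (32.8 RPKM) and ERO1A (27.8 RPKM). That choice favours genes high with siZIP7_2, so the order they share with VEGFA is a description only.

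Some other targets did not share that order. ANKRD37 rose with both siRNAs, by 0.81 and 1.79 log2, and UFSP2 overlaps 35.2% of its exonic length. ADM, which encodes the vessel-dilating peptide adrenomedullin, rose by 0.40 log2 with siZIP7_1, and its -0.11 with siZIP7_2 did not pass. BNIP3, a mitophagy receptor, did not pass with siZIP7_1 (0.01 log2) and fell by 0.20 log2 with siZIP7_2. CA12, a carbonic anhydrase related to CA9, fell with both, from 38.3 ± 3.40 CPM to 3.03 ± 0.517 (siZIP7_1) and 18.0 ± 0.143 CPM (siZIP7_2, SD, n = 3 each), with log2 values of -3.66 and -1.09.

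**Figure D4:**
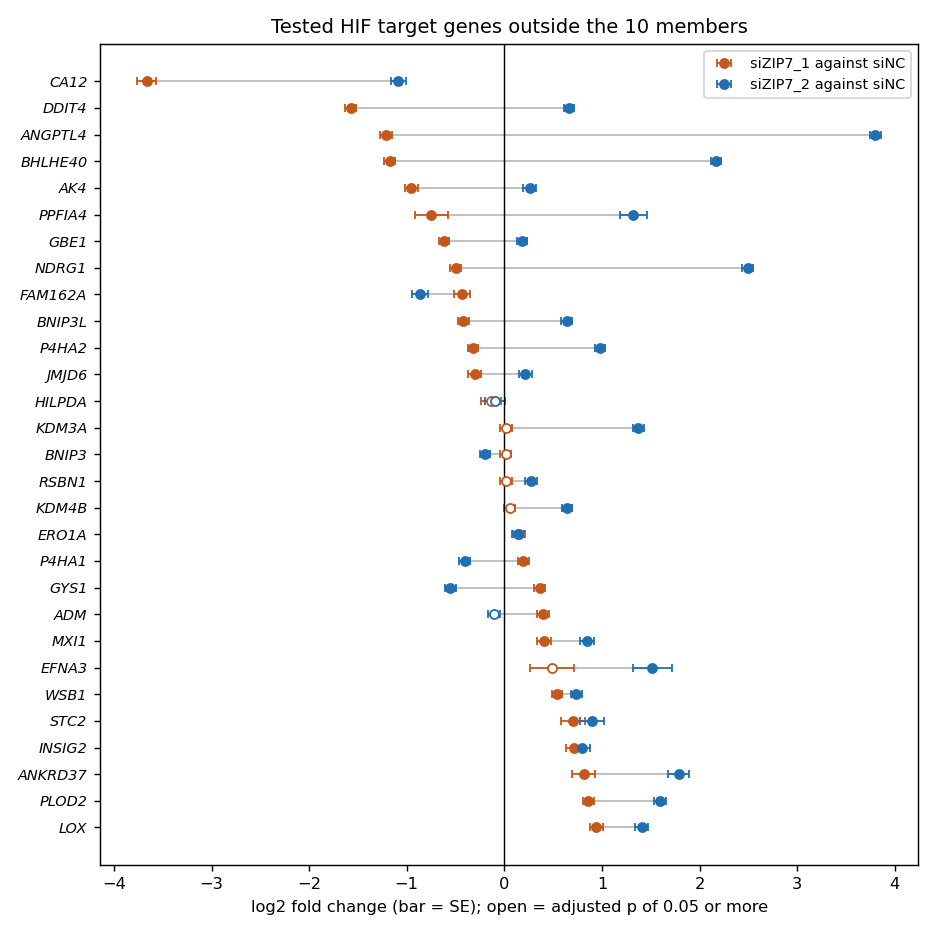
Log2 fold change against siNC (horizontal axis, bar = SE) of the 29 tested HIF target genes outside the 10 members, sorted by their value with siZIP7_1. Orange is siZIP7_1, blue is siZIP7_2 and open points did not pass. CA12 is at the top (-3.66 with siZIP7_1), and ANGPTL4 reaches 3.80 with siZIP7_2.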

How the data were processed

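RNA-seq counts of 9 libraries, 3 each for siNC, siZIP7_1 and siZIP7_2, were analysed, with groups taken from the treatment labels. Each file deposited by the authors holds the raw counts of single-end reads for every Ensembl gene. Their processing notes name Trim Galore 0.4.1, FastQC 0.11.2, STAR, HTSeq 0.6.1 and DESeq2 1.16.1. The genome build and strand setting are not given in the sources used here. The 5 summary lines were left out of library sizes. Of 58395 identifiers, 58275 had a symbol in GENCODE release 29 (GRCh38).

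For testing, edgeR 4.0.16 was run in R 4.3.3 (TMM, filterByExpr, glmQLFit and glmQLFTest, 6 residual degrees of freedom). The SE is the size of the log2 fold change divided by the square root of F, and 95% intervals use that SE with 6 degrees of freedom. These intervals are wider than the F-test implies, so a gene can pass while its interval takes in no change. The alternatives were DESeq2 1.42.0, its size factors, upper-quartile scaling, other low-count filters, a replicate block, fits to a pair of groups, glmTreat at 1.8-fold and leaving out each library. The fit was tested on simulated data. Profile distances used log2 CPM with a pseudocount of 0.5 and genes of at least 1 CPM on average. Named genes were the 10 members, genes fixed for their role and the 3 nearest profiles of TXNIP, ARRDC4 and CA9. To these were added, from each list, the 3 genes of highest mean RPKM over the 9 libraries. The members and lists were chosen with earlier results of these data known. A few genes of these lists are not reported here.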

Additional observations from a re-analysis of the deposited data

Results flagged for a closer look

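Of the 10 genes, 3 were called in opposite directions with the siRNAs, where 18.7% of all genes were, and the difference between the siRNAs passed the test itself in edgeR. VEGFA was lower with siZIP7_1 and higher with siZIP7_2 than with siNC, a log2 difference of 2.14 between the siRNAs. PFKFB3 differed in the same sense by 1.14 log2. ARRDC4 differed in the opposite sense, at -0.65 log2, and its fall with siZIP7_2 did not pass with upper-quartile normalization. The groups did not overlap in any of these comparisons, and the same held for 79.7% of all genes between the siRNAs.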

How the results depend on the processing

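With glmTreat against 1.8-fold, the number of genes past the threshold was 2836 with siZIP7_1, 4134 with siZIP7_2 and 4725 between the siRNAs, and the number of members was 3, 0 and 4. No other alternative moved these counts by more than 1.5 times. With each library left out in turn, genes past the threshold ranged from 11291 to 11984, from 12633 to 13360 and from 12840 to 13458, and members were 9 throughout, 8 to 9 and 8 to 9. Upper-quartile normalization moved the median of all genes by 0.11 log2 with siZIP7_2. Signs changed for differences that passed in no setting. PFKFB4 with siZIP7_1 was 0.020 with upper-quartile normalization, 0.017 when every library had to hold 10 counts and 0.0025 with only the groups compared, and -0.038 to 0.048 with a library left out. HK2 between the siRNAs was 0.0063 with DESeq2's size factors, 0.052 with upper-quartile normalization and 0.023 when every library had to hold 10 counts, and -0.066 to 0.0045 with a library left out. Their cause was not tested. Libraries of the same number did not deviate together (correlations of -0.09 to 0.12 over 9 pairs), and 2 of 9 libraries correlated best with their own number. With the replicate block, genes past the threshold were 11927, 13080 and 13242, and members 9, 8 and 8. CA9, at 6 to 67 reads per library, was the gene most limited by depth.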
